A study of Mus musculus with 16 samples.

Results

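The genes described here encode the proteins of the mitochondrial ribosome. They were taken by symbol, as every row of the count table whose name starts with Mrpl or Mrps followed by a digit. This rule gave 76 of the 23479 genes in the table, 47 with Mrpl symbols and 29 with Mrps symbols, and all 76 were among the 18430 genes that passed the low-count filter. RNA was sequenced from CD4 T cells of C57BL/6 mouse spleens, purified with magnetic beads that bind and remove other cells. The control group held 5 libraries from mice without a tumour (labelled day 0), and the other mice had received Eµ-Myc lymphoma cells, a B cell lymphoma driven by Myc controlled by an antibody heavy chain enhancer. Of these, 7 libraries came from spleens of day 7 after transplant and 4 from spleens of day 14. No mouse in any group is described as carrying an engineered allele of its own, and the transplanted cells were not the cells sequenced, except where some escaped the purification. The comparisons address how the transcriptome of CD4 T cells differs in mice that bear the lymphoma.

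Mitochondrial ribosomes translate the few proteins that the mitochondrial genome encodes, all of them core subunits of the respiratory chain and the ATP synthase. All of their proteins are encoded in the nucleus, made on cytosolic ribosomes and imported. Some descend from proteins of the bacterial ribosome and others were added in the mitochondrial lineage. T cells raise mitochondrial translation when they are activated and divide, and Myc is a known activator of ribosome and mitochondrial genes.

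The 76 genes were spread over many chromosomes, with 10 on chromosome 11, and many sat beside another gene. In the GENCODE gene models for GRCm38, the same assembly as mm10, 32 of the 76 (42.1%) had a start within 1 kb of the start of a gene on the other strand. Among the 19414 protein-coding genes of the table this held for 2158 (11.1%). RefSeq held promoter windows, 250 bases before to 50 after a start, for 67 of the 76 genes, 73 windows in all. Their letters were searched on both strands for 6 short motifs known from genes of mitochondrial proteins and from general promoters. The ETS motif CCGGAAG was found in 32.9% of the 73 windows, against 8.86% of all 32851 RefSeq windows and 11.6% of the windows of genes in the count table. The NRF1 motif GCGCANGCG was found in 20.5%, against 6.25% and 8.73%, and the YY1 motif AAGATGGCG in 10.96%, against 1.40% and 1.88%. The SP motif GGGCGG stood in 52.1%, against 35.7% and 47.3%. The E-box CACGTG, the motif that Myc binds with Max, stood in 9.59%, against 7.15% and 8.09%. Of these windows 3 belong to Mrpl2 and nearly coincide. Counted by gene, 7.46% of the 67 held an E-box, against 8.09% of all genes with a window and 9.22% of those in the count table, and 49.3% held an SP motif, against 38.2% and 50.3%. The TATA box letters TATAAA stood in 6.85%, against 13.6% and 12.2%. Such matches describe letters only, and the windows of neighbouring genes on opposite strands can overlap.

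The 4 windows below belong to genes on which the results turn and to the partner of one of them. They are RefSeq sequences of GRCm38.p6, each written 5′ to 3′ on its gene's own strand, and capitals mark the matched motifs. Mrps5 is at chr2:127587176-127587475, plus strand, and holds 1 SP motif on its other strand. Mrpl32 is at chr13:14612988-14613287, minus strand, and holds 3 NRF1 matches, 2 of which overlap as 1 palindromic run, with 1 SP motif between the run and the third match. Mrpl46 is at chr7:78783040-78783339, minus strand, with an SP motif and, from 131 bases before the RefSeq start, the TATA box letters. In GENCODE, which gave the distances and exon overlaps, Mrpl46 starts at base 78783531, upstream of this window. Mrps11 is at chr7:78782881-78783180, plus strand, with a YY1 and an SP motif, and its window overlaps that of Mrpl46, so that both hold the same SP letters on opposite strands.
Mrps5: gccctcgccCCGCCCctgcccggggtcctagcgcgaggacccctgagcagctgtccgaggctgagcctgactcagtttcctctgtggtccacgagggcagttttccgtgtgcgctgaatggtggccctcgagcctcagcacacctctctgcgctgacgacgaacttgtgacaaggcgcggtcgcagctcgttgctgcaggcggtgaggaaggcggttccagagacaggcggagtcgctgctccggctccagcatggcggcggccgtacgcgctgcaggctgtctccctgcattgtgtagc
Mrpl32: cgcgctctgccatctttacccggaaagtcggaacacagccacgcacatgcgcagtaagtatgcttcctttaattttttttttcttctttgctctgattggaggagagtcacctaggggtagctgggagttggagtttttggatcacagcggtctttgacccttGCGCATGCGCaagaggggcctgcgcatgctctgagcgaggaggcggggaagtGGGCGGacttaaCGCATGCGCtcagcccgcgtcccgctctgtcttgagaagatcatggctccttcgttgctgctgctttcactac
Mrpl46: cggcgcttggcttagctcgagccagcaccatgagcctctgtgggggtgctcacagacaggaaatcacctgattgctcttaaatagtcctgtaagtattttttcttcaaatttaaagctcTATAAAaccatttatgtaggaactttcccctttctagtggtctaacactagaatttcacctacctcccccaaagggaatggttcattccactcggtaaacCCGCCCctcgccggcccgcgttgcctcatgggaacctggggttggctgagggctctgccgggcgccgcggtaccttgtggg
Mrps11: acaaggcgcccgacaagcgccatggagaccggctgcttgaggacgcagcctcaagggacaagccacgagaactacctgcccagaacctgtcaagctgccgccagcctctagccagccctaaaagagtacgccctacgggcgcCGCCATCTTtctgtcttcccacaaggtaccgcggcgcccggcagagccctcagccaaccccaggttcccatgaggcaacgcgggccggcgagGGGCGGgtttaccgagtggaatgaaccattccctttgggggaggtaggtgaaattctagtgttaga

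Each library held 14493764 to 27340070 gene counts, and the 76 genes together took 0.160% to 0.223% of them. The CD4 T cell markers (7 of 8 listed genes tested) summed to 2721 to 5432 CPM in controls, 4006 to 5966 CPM at day 7 and 3011 to 4499 CPM at day 14. Cd8a and Cd8b1 stayed under 17.7 CPM together in every library. The 10 dividing-cell markers summed to 299 to 4310 CPM in controls, 196 to 719 CPM at day 7 and 401 to 2065 CPM at day 14, and controls 1 and 2 were the highest controls. The 8 neutrophil genes summed to 18.04 to 2156 CPM in controls, 0.802 to 34.6 CPM at day 7 and 16.6 to 1554 CPM at day 14, again with controls 1 and 2 the highest controls. The B cell markers (8 in the table, 7 tested) summed to 12.97 to 71.6 CPM in controls, 15.5 to 32.3 CPM at day 7 and 19.0 to 40.8 CPM at day 14. The 4 MHC class II genes summed to 44.9 to 508 CPM in controls (median 231), 7.10 to 127 CPM at day 7 (median 31.3) and 18.01 to 52.97 CPM at day 14 (median 36.2). The macrophage and monocyte markers (4 of 5 listed genes tested) summed to 8.20 to 562 CPM in controls (median 44.7), 16.2 to 43.7 CPM at day 7 (median 22.1) and 20.5 to 92.6 CPM at day 14 (median 27.03). Controls 1 and 2 were the highest libraries for both lists. The 5 globin genes among the 7 erythroid markers were listed at 0 in every library. Reads outside gene models made up 47.1% to 56.7% of a library in controls, 54.6% to 68.0% at day 7 and 54.4% to 69.8% at day 14.

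Levels of the 76 genes differed widely. On a scale of TMM-scaled CPM per kilobase of exon, averaged over 16 libraries, they spanned 60.6-fold with a median of 13.4. Mrpl52, a large subunit protein with no bacterial counterpart, had the highest level at 148 CPM per kb. Mrpl33 followed at 91.2 and Mrps21 at 71.6, both small proteins with bacterial counterparts. The lowest levels were those of Mrps17 at 3.06, Mrpl48 at 2.86 and Mrpl47 at 2.43 CPM per kb. These levels depend on the transcript taken for exon length, which was 5.061 kb for Mrps17 and 0.418 kb for Mrpl52. The medians of Mrpl genes (13.8) and Mrps genes (11.7) were close beside this span, and each class of genes covered at least 7.11-fold. Mrpl52 averaged 163 ± 26.3 CPM per kb in the 5 controls, 132 ± 25.6 in the 7 day 7 libraries and 156 ± 57.2 in the 4 day 14 libraries (mean ± SD), and the groups' spreads overlapped. Mrpl47 averaged 2.68 ± 0.704, 2.31 ± 0.435 and 2.35 ± 0.547 CPM per kb in control, day 7 and day 14 libraries, and these spreads overlapped as well.

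**Figure D1:**
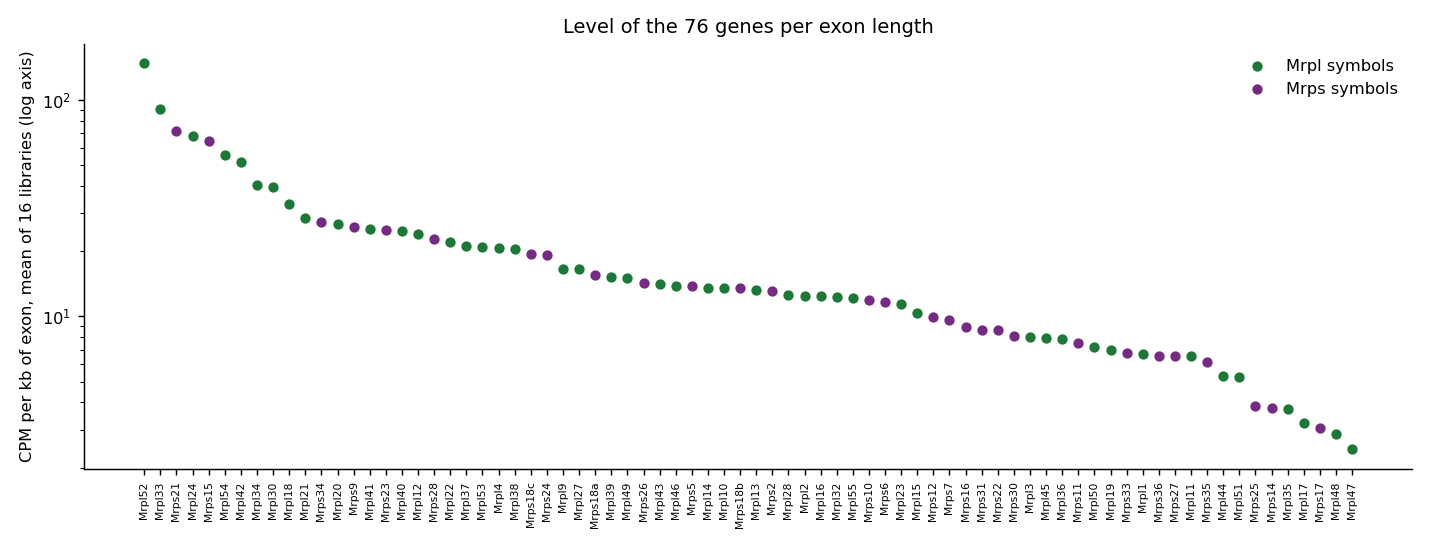
Mean level of each of the 76 genes over 16 libraries, in TMM-scaled CPM per kilobase of exon on a log axis, with genes ordered by level and coloured by symbol (Mrpl green, Mrps purple). Mrpl52 stands highest at 148 and Mrpl47 lowest at 2.43, and both kinds of symbol run through the whole order.

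Day 14 was set against control to ask which of these genes differ late after transplant. Mrps5, a small subunit protein with a bacterial counterpart, fell, and it was the only one of the 76 genes past the adjusted threshold of 0.05. No member was called higher. Across all tested genes, 1.8% were called lower and 1.33% higher, so 1 of 76 is near the background share. Without that threshold the direction was shared: 68 of 76 log2 changes were negative, against 42.28% of all tested genes. The median change of the 76 genes was -0.29 on the log2 scale, or 0.816-fold, and the median over all tested genes was 0.12. Changes ran from -0.60 to 0.10, and at an unadjusted p under 0.05 there were 21 lower and 0 higher, beside background shares of 11.8% and 10.5%. Negative changes numbered 49 of 76 with library totals as the scaling, where the median over all tested genes was 0.32. They numbered 51 of 76 without the libraries with over 65% of reads outside gene models. In bulk RNA, fewer cells of a type and less RNA per cell cannot be told apart.

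Mrps5 had 42.7, 56.9, 47.3 and 50.2 CPM in the 4 day 14 libraries, against 66.2, 83.9, 76.2, 80.8 and 60.5 CPM in the 5 controls. Every day 14 library was below every control. At day 7 the lowest, median and highest values were 48.2, 57.3 and 75.2 CPM, which overlapped both other groups. The log2 change at day 14 against control was -0.58 ± 0.14 (SE, edgeR quasi-likelihood test, adjusted p = 0.0349). The call rested on several single libraries. The adjusted p was 0.0680, 0.0560 and 0.0746 without day 7 replicate 1, 3 or 5, which enter through the shared estimate of spread. It was 0.181, 0.124 and 0.0730 without day 14 replicate 1, 3 or 4, and 0.121 and 0.104 without control 3 or 4. The call was also absent with library totals as the scaling (0.113), in a fit to the 2 groups alone (0.0940) and with the share of reads outside gene models as a covariate (0.610). Those fits called 0.543%, 0.0% and 0.0% of all tested genes lower, so the loss of the call was not particular to Mrps5. The change of Mrps5 itself lay between -0.66 and -0.48 in all 16 fits that left out 1 library. No exon of Mrps5 overlapped another gene of the table in the annotation.

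Mrpl32, the large subunit protein whose precursor is matured by the mitochondrial m-AAA protease, had the lowest log2 change at day 14 among the 76 but did not pass the threshold. Its values were 19.6, 40.0, 33.1 and 29.8 CPM in day 14 libraries, against 41.8, 49.8, 51.8, 54.1 and 34.97 CPM in controls. Day 14 replicate 2 lay above control 5, so the groups overlapped. The log2 change was -0.60 ± 0.17 (edgeR adjusted p = 0.0604). The adjusted p was 0.0181 without day 14 replicate 2, 0.0313 without control 5, and 0.231 without day 14 replicate 1. Mrpl32 was called lower with DESeq2, with limma-voom, and with Y-linked transcripts or dividing-cell markers as a covariate. Those fits called 3.79%, 2.52%, 2.39% and 7.44% of all tested genes lower. It was not called with RLE scaling, library totals, a fit to the 2 groups alone or the share of reads outside gene models as a covariate. At the other end stood Mrps10 and Mrps9, small subunit proteins with bacterial counterparts. Mrps10 changed by 0.10 ± 0.18 and Mrps9 by 0.07 ± 0.13 on the log2 scale (edgeR adjusted p = 0.740 and 0.728). Mrps9 averaged 40.2 ± 2.14 CPM at day 14 (n = 4) and 38.2 ± 3.59 CPM in controls (n = 5), and its sign turned to -0.04 with the share of reads outside gene models as a covariate.

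Mrps5, Mrpl2, Mrpl34 and Mrps24 were the 4 members whose day 14 libraries all lay below all controls, where 2.85% of all tested genes did so. The last 3 were looked up after their values were seen. Mrpl34 had 16.9, 23.6, 21.1 and 22.2 CPM at day 14, against 27.9, 39.9, 29.6, 26.8 and 26.7 CPM in controls. Mrpl2 reached at most 12.09 CPM at day 14, against at least 12.13 CPM in controls, and Mrps24 at most 18.6 CPM, against at least 19.5 CPM in controls. No member lay higher without overlap, where 5.24% of all tested genes did.

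Day 7 against control gave the earlier time point and uses the same 5 controls, so the 2 comparisons are not independent. No member was called in either direction, with 0.0109% of all tested genes called higher and 0.0% lower. At an unadjusted p under 0.05, edgeR gave 21 members lower and 0 higher, beside background shares of 12.7% and 8.43%. DESeq2 called 7 members lower (9.21%), Mrpl2, Mrpl12, Mrpl15, Mrpl20, Mrpl32, Mrpl40 and Mrpl44. It called 8.45% of all genes with an adjusted p lower, so this share is near the background. Negative log2 changes numbered 71 of 76, against 43.82% of all tested genes, and the median change was -0.22, or 0.858-fold, against 0.07 over all tested genes. Without control 5, edgeR called 3 members lower (3.95%), Mrpl20, Mrpl32 and Mrps7, beside 5.58% of all genes tested in that fit.

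Mrpl20, whose bacterial counterpart is an early assembly protein of the large subunit, had the lowest change at day 7. Its lowest, median and highest values at day 7 were 12.9, 16.4 and 20.2 CPM, against 26.9, 38.9, 23.6, 22.9 and 22.4 CPM in controls. Every day 7 library was below every control. The log2 change was -0.75 ± 0.17 (edgeR adjusted p = 0.0709), with an adjusted p of 0.0244 without control 5 and a change of -0.58 without control 2. At day 14 Mrpl20 had 16.5, 24.1, 16.2 and 22.7 CPM, which overlapped the controls, and a change against control of -0.44 ± 0.19 (edgeR adjusted p = 0.194).

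Mrpl12 forms the stalk of the large subunit that recruits translation factors, and it has also been reported to bind the mitochondrial RNA polymerase. Its lowest, median and highest values at day 7 were 20.4, 24.5 and 39.4 CPM, against 44.2, 56.0, 31.6, 36.8 and 38.1 CPM in controls. The 2 highest day 7 libraries lay within the range of the controls. The log2 change was -0.62 ± 0.20 at day 7 and -0.54 ± 0.23 at day 14 against control (edgeR adjusted p = 0.0939 and 0.182). Day 14 values split, with 21.3 and 20.5 CPM in replicates 1 and 3 and 35.05 and 36.5 CPM in replicates 2 and 4.

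Mrpl40, a large subunit protein without a bacterial counterpart, had lowest, median and highest values of 24.8, 28.2 and 32.6 CPM at day 7, against 41.6, 44.4, 34.4, 34.4 and 37.1 CPM in controls. The groups did not overlap. Its log2 change was -0.40 ± 0.13 (edgeR adjusted p = 0.0883). Mrpl32 at day 7 had 29.1, 33.3 and 38.5 CPM as lowest, median and highest values, overlapped control 5, and changed by -0.47 ± 0.15 (edgeR adjusted p = 0.0904). The 4 members without overlap at day 7 were Mrpl15, Mrpl20, Mrpl40 and Mrpl44, all of them lower, where 0.982% of all tested genes lay lower and 0.988% higher without overlap. Mrpl15 was looked up after its values were seen. Mrpl44, which resembles bacterial RNase III, averaged 6.37 ± 1.09 CPM at day 7 (n = 7) and 8.92 ± 0.581 CPM in controls (n = 5). The highest changes at day 7 were those of Mrpl17 at 0.16 ± 0.14 and Mrps2 at 0.07 ± 0.13 (edgeR adjusted p = 0.562 and 0.820), both of them proteins with bacterial counterparts.

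**Figure D2:**
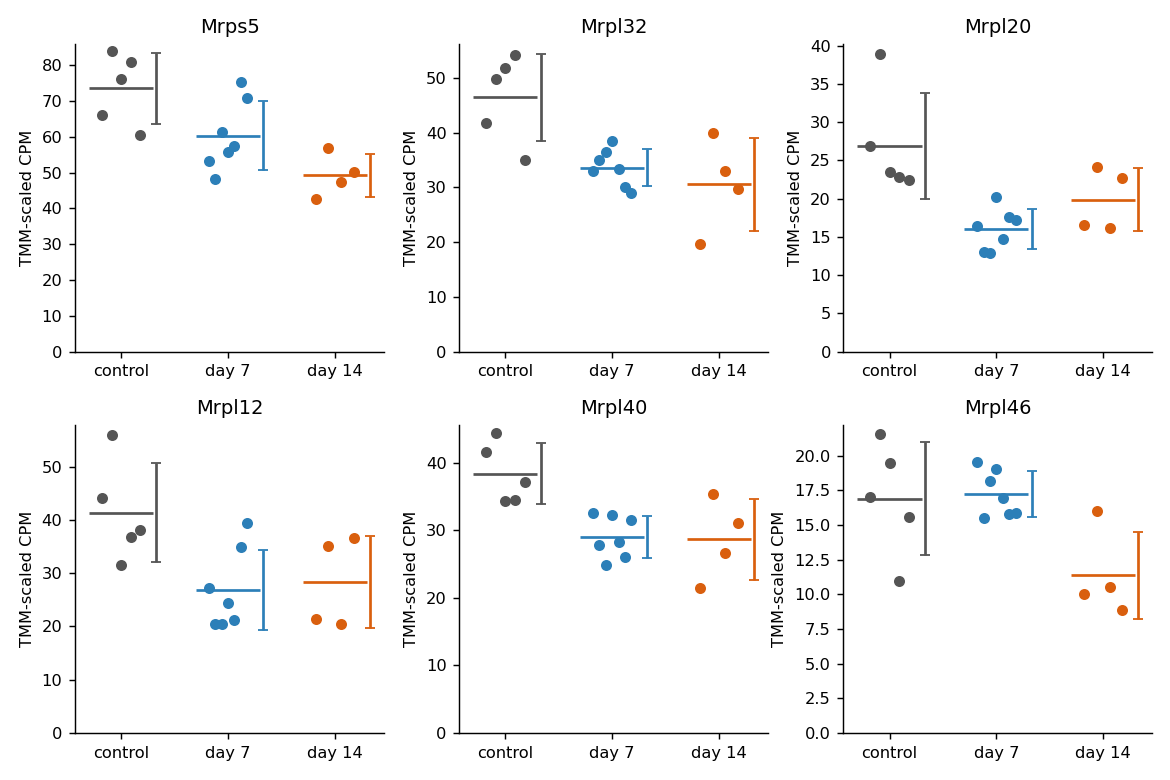
TMM-scaled CPM of 6 genes in every library, by group, with the group mean (horizontal line) and SD (error bar) for control (n = 5), day 7 (n = 7) and day 14 (n = 4). Mrps5 is lower in all day 14 libraries than in any control, Mrpl20 and Mrpl40 are lower in all day 7 libraries than in any control, and Mrpl46 is low in 3 of 4 day 14 libraries.

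Day 14 against day 7 asked whether the later libraries differ from the earlier ones, and no member was called. Across all tested genes 0.412% were called higher and 0.553% lower. Of the 76 changes 44 were negative, against 40.60% of all tested genes, and the median was -0.03, against 0.12 over all tested genes. At an unadjusted p under 0.05 there were 2 members lower and 0 higher, with background shares of 8.27% and 6.54%. No member separated the groups in either direction, where 2.78% of all tested genes lay lower and 1.77% higher without overlap. Other scalings moved the medians of the 76 genes and of all tested genes together, to 0.004 and 0.16 with RLE scaling and to 0.12 and 0.29 with library totals. Single libraries moved the median of the 76 genes to 0.03 without day 14 replicate 1 or 3 and to -0.14 without day 14 replicate 2.

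Mrpl46, a large subunit protein added in the mitochondrial lineage, had the lowest change between the time points. Its values were 10.01, 15.97, 10.54 and 8.89 CPM at day 14, against 15.5, 17.0 and 19.5 CPM as the lowest, median and highest at day 7. Only day 14 replicate 2 overlapped the day 7 range. The log2 change was -0.60 ± 0.19 (edgeR adjusted p = 0.132), and the adjusted p was 0.0369 without day 14 replicate 2. Its partner across the start, Mrps11, had 7.77, 7.77, 6.59 and 9.68 CPM at day 14, all within the day 7 range of 4.33 to 9.14 CPM except replicate 4, which was above it. Mrps11 was looked up for its position. Exons of the pair overlap on opposite strands, and the strand setting of the counting is not given in the sources used here, so reads of the shared stretch cannot be assigned with certainty. The other changes singled out between the time points were -0.30 ± 0.15 for Mrps34 and -0.29 ± 0.13 for Mrps5, and 0.25 ± 0.12 for Mrps9 (edgeR adjusted p = 0.354, 0.295 and 0.338). Among members with a mean of at least 10 CPM, the highest changes were 0.31 ± 0.18 for Mrpl20 and 0.25 ± 0.19 for Mrpl52 (edgeR adjusted p = 0.447 and 0.572).

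The changes were also grouped by structural class. At day 14 against control, the median log2 change was -0.32 for the 30 large subunit proteins with a bacterial counterpart and -0.32 for the 19 without one. It was -0.26 for the 16 small subunit proteins with a bacterial counterpart and -0.22 for the 10 without one. The same classes had medians of -0.28, -0.25, -0.20 and -0.15 at day 7 against control. By symbol, 46 of 47 Mrpl changes and 22 of 29 Mrps changes were negative at day 14, with medians of -0.32 and -0.25. At day 7 the counts were 44 of 47 and 27 of 29, with medians of -0.27 and -0.16. The differences between classes were not tested. The spread of the 76 changes (SD of 0.18 at day 14 and 0.17 at day 7) was about the size of the standard error of 1 gene, whose median was 0.18 at day 14 and 0.16 at day 7.

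**Figure D3:**
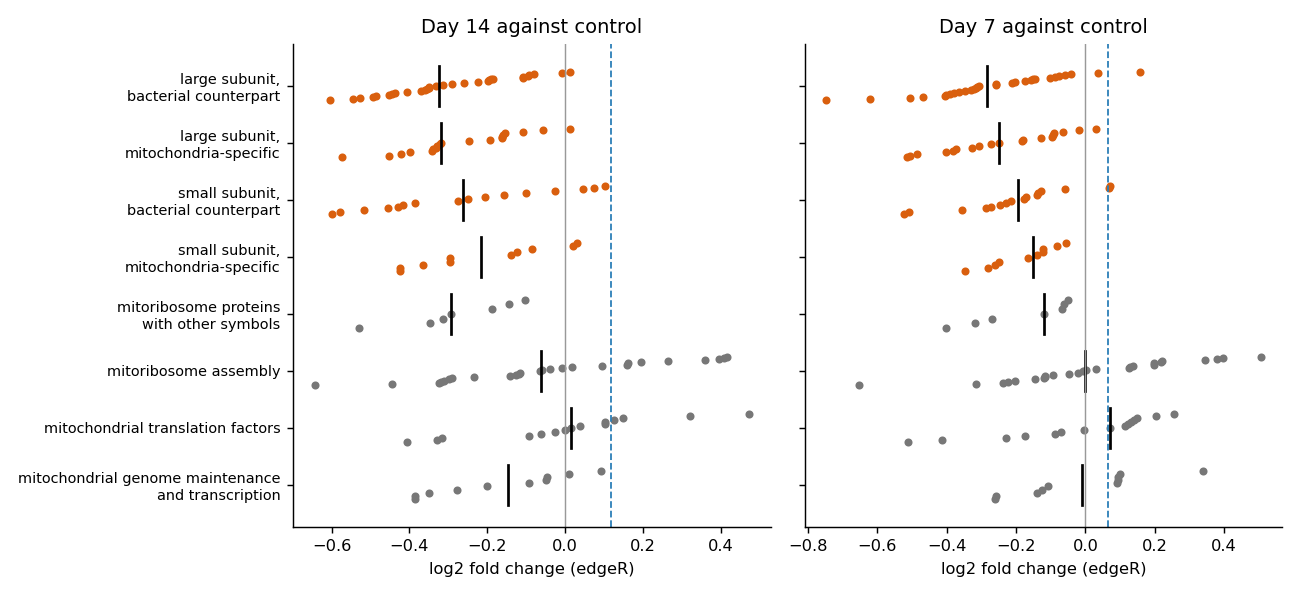
Log2 fold changes (edgeR) of single genes by class at day 14 against control (left) and day 7 against control (right), with a black bar at each class median and a dashed line at the median of all tested genes. The 4 upper classes are the Mrpl and Mrps genes, with medians of -0.22 or below at day 14. The grey classes below are other genes of mitochondrial translation and genes of mitochondrial genome maintenance and transcription. The assembly and translation factors centre near 0, and the genome maintenance and transcription genes had a median of -0.15 at day 14.

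Some genes of interest were fixed by role rather than by value. Mrps36, which the symbol rule takes in although its protein is a part of the 2-oxoglutarate dehydrogenase complex, had 4.67 ± 0.651 CPM in controls, 4.53 ± 0.941 at day 7 and 4.71 ± 2.22 at day 14. Mrps18a, Mrps18b and Mrps18c are 3 paralogs, the first of which sits in the large subunit. Mrps18a averaged 14.1 ± 2.61, 13.2 ± 2.47 and 14.2 ± 2.32 CPM in control, day 7 and day 14 libraries, and Mrps18b averaged 14.8 ± 1.95, 14.2 ± 2.82 and 14.99 ± 2.88 CPM. Mrps18c averaged 13.5 ± 1.88, 12.3 ± 1.08 and 11.3 ± 0.521 CPM in the same order. The group means of Mrps18a and Mrps18b lay within 1 SD of each other. Mrps12, the counterpart of a bacterial protein of the decoding site, averaged 11.1 ± 4.59, 7.81 ± 2.72 and 7.33 ± 1.26 CPM. Mrpl11, at the base of the stalk, averaged 23.5 ± 5.96, 18.3 ± 2.95 and 18.5 ± 4.14 CPM, and the spreads of both genes overlapped between groups. Mrps16 and Mrps22 are small subunit proteins whose human counterparts are mutated in mitochondrial disease. Mrps16 averaged 26.1 ± 2.58, 22.2 ± 4.45 and 19.9 ± 4.00 CPM and Mrps22 averaged 11.7 ± 2.35, 9.76 ± 2.45 and 9.52 ± 2.28 CPM. Mrps27, a pentatricopeptide repeat protein, averaged 12.95 ± 1.22, 11.5 ± 1.87 and 12.2 ± 1.72 CPM, with overlapping spreads. Mrps30, a large subunit protein despite its symbol, averaged 29.2 ± 4.29, 27.5 ± 3.07 and 23.4 ± 4.91 CPM.

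The libraries within a group differed in how high the genes stood. The mean log2(CPM + 1) over the 76 genes was 4.59, 4.69, 4.49, 4.49 and 4.50 in controls 1 to 5. At day 7 its lowest, median and highest values were 4.15, 4.32 and 4.50. At day 14 it was 4.08, 4.54, 4.14 and 4.41 in replicates 1 to 4. Day 14 replicate 2 thus stood above 3 of the controls, and day 14 replicates 1 and 3 below every day 7 library. Control 2 had the highest value of all 16 libraries for 31 of the 76 genes. Day 14 replicate 1 had the lowest for 26, day 7 replicate 3 for 20 and day 14 replicate 3 for 9.

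The same libraries stood apart in other measures. Reads outside gene models made up 69.8%, 54.4%, 66.3% and 62.3% in day 14 replicates 1 to 4 and 68.0% in day 7 replicate 3. Controls 1 and 2, the highest for the 76 genes, also had the highest sums of dividing-cell markers among the controls, at 1877 and 4310 CPM, and the highest sums of neutrophil genes, at 785 and 2156 CPM, of MHC class II genes, at 508 and 390 CPM, and of macrophage and monocyte markers, at 209 and 562 CPM. With the share of reads outside gene models as a covariate, the median change of the 76 genes was -0.05 at day 14 and -0.08 at day 7 against control, beside medians of -0.08 and -0.08 over all tested genes. That fit called 1 of 18430 genes at day 14 and 0 at day 7, so the absence of called members in it says nothing particular about them. Negative changes then numbered 45 and 53 of 76. Without the 3 libraries above 65% outside gene models, an alternative added after the data were seen, the day 14 median was -0.10. In that fit 4 of 18635 genes were called, none of them a member. The share of reads outside gene models is itself higher in the tumour-bearing groups, and its part in the result was not tested beyond these fits. Without controls 1 and 2, the medians were -0.20 at day 14 and -0.14 at day 7, and Mrps5 was still called (edgeR adjusted p = 0.0438). With dividing-cell markers as a covariate the day 14 median was -0.31, and 11 members (14.5%) were called lower, beside 7.44% of all tested genes in that fit. At day 7 that covariate gave a median of -0.11 and no call. The part of RNA from neutrophils, macrophages or MHC class II cells in the result was not tested apart from the removal of controls 1 and 2.

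**Figure D4:**
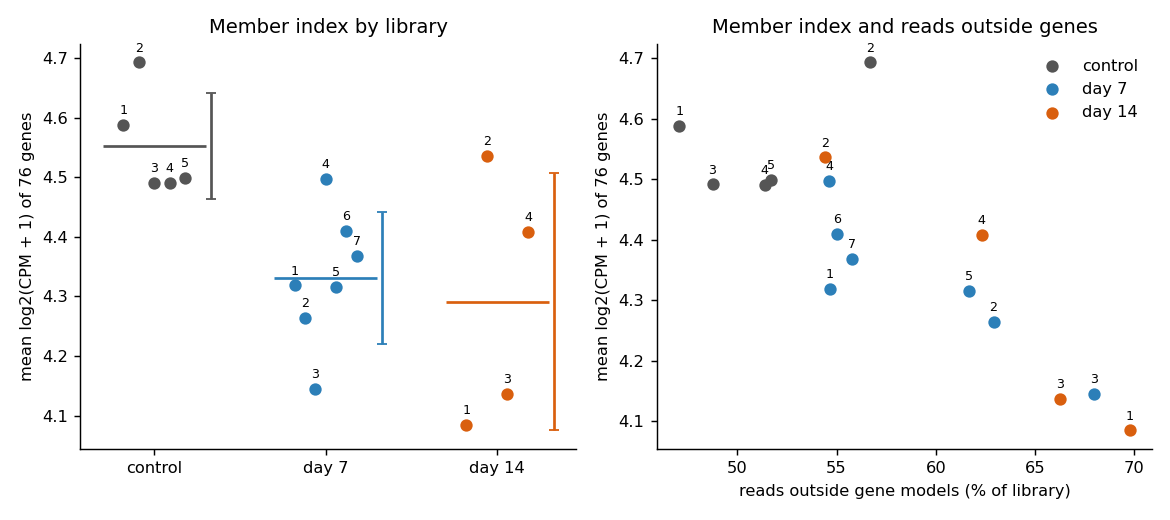
Mean log2(CPM + 1) over the 76 genes in each library, by group with mean and SD (left) and against the share of reads outside gene models in percent (right), with replicate numbers beside the points. Day 14 replicates 1 and 3 and day 7 replicate 3, the 3 libraries above 65%, are the 3 lowest, and control 2 is the highest at 4.69.

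The day 14 medians of the 76 genes and of all tested genes moved together with the scaling. With library totals in place of TMM, the median of the 76 genes was -0.11 at day 14 against control, while the median of all tested genes moved to 0.32 from 0.12. Under both scalings the median of the 76 genes was below that of all tested genes. The median of the 76 genes minus that of all tested genes was -0.41 with TMM and -0.43 with library totals. At day 7 the median was -0.19 with library totals and -0.21 with RLE scaling. The day 14 median was -0.18 without day 14 replicate 1 and -0.36 without day 14 replicate 2. Members called lower at day 14 numbered 0 without day 7 replicate 1, 3 or 5, day 14 replicate 1, 3 or 4, or control 3 or 4. Those fits called 0.0979% (without control 3) to 1.28% (without day 7 replicate 3) of all tested genes lower. Members called lower numbered 2 (2.63%) without control 5, where 3.03% of all tested genes were called lower, and 9 (11.8%) without day 14 replicate 2, where 5.14% were.

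**Figure D5:**
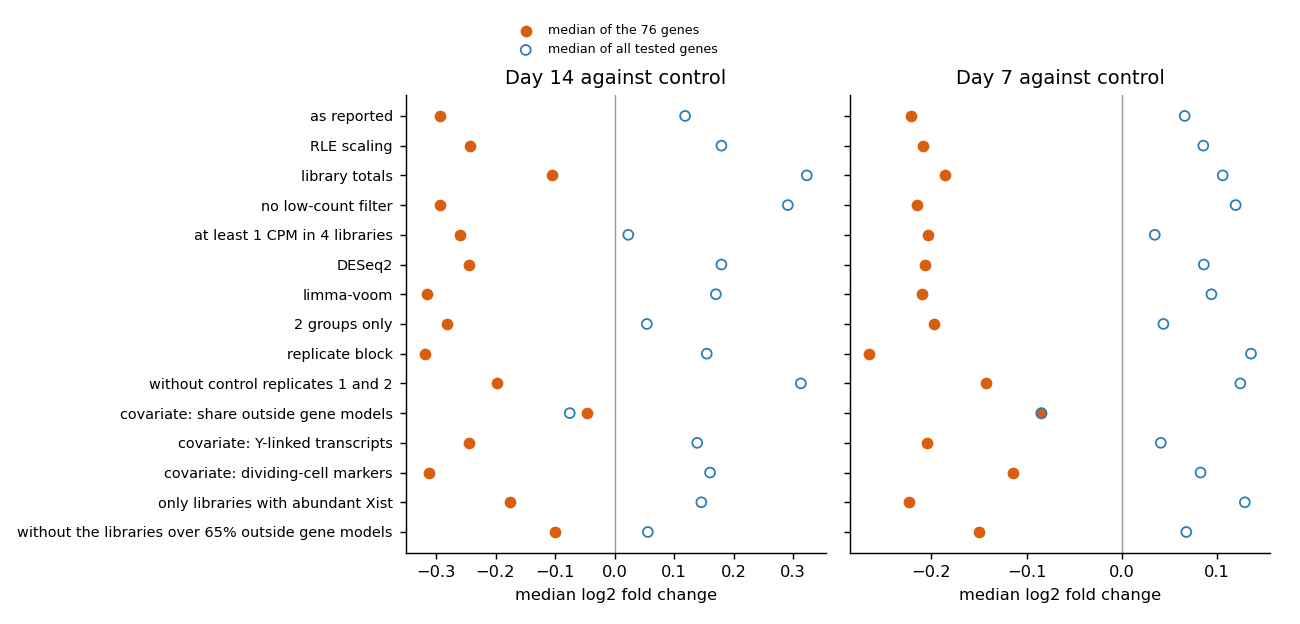
Median log2 fold change of the 76 genes (filled) and of all tested genes (open) under each way of processing the counts, at day 14 against control (left) and day 7 against control (right). The filled points stay below 0 throughout, and they lie below the open points except where the share of reads outside gene models is a covariate.

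Other genes of mitochondrial translation, of mitochondrial genome maintenance and transcription and of related complexes were described in the same way. The 7 mitoribosome proteins with other symbols, such as Dap3 and Gadd45gip1, had 7 of 7 negative changes at day 14 and at day 7 against control, with medians of -0.29 and -0.12. The 26 tested assembly factors had 16 and 13 negative changes and medians of -0.06 and -0.00. The 15 translation factors had 6 and 7 negative changes and medians of 0.01 and 0.07. The 10 genes of mitochondrial genome maintenance and transcription had 8 and 5 negative changes and medians of -0.15 and -0.01. No gene of these lists was called in either comparison. The 78 cytosolic ribosomal protein genes had a median of -0.41 at day 14, with 75 negative and 8 called lower, and of -0.22 at day 7, with 72 negative and 0 called. The 80 genes of complex I to V subunits, which include the partners of the proteins that mitochondrial ribosomes make, had medians of -0.39 and -0.33, with 77 and 75 negative and 5 and 0 called lower. Across all tested genes, 42.28% of changes were negative and 1.8% were called lower at day 14, and 43.82% and 0.0% at day 7. Whether the 76 genes differ from these sets was not tested.

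Of 13 factors proposed to act on these promoters, Yy1, a zinc finger factor that binds the YY1 motif, was the only one called. At day 14 against control 1.8% of all tested genes were called lower and 1.33% higher. Yy1 averaged 163 CPM in controls, 147 at day 7 and 121 at day 14. It fell by 0.43 ± 0.10 on the log2 scale at day 14 against control (edgeR adjusted p = 0.0293). The adjusted p was 0.0804 and 0.0832 without day 7 replicate 1 or 5, 0.186, 0.0998 and 0.0724 without day 14 replicate 1, 3 or 4, and 0.0576, 0.130 and 0.108 without control 1, 3 or 4. It was 0.669 with the share of reads outside gene models as a covariate. The median over the 13 factors was -0.06 at day 14 and -0.06 at day 7. The change of greatest size in the list was that of Ppargc1a, a coactivator of mitochondrial genes, which was looked up after its values were seen. Its mean CPM was 0.880 ± 0.656 over the controls, 0.898 ± 0.340 over the day 7 libraries and 2.63 ± 0.342 over the day 14 libraries (SD). Its log2 change at day 14 against control was 1.58 ± 0.60 (edgeR adjusted p = 0.138). With 1 library left out, the edgeR adjusted p was 0.0705 to 0.288, so it was called in none of those fits. Limma-voom gave an adjusted p of 0.0404, in a fit that called 2.92% of all tested genes higher.

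The neighbours that share a start region gave a local comparison. The 27 tested genes that are not members and start within 1 kb of a member on the other strand had median log2 changes of 0.03 at day 14 and 0.02 at day 7 against control, with 13 and 11 of 27 negative and none called. Mrps5 and its neighbour Zfp661 start 128 bp apart. Zfp661 averaged 4.83 CPM at day 14 and 4.59 CPM in controls. Mrpl32 starts 75 bp from Psma2, a proteasome subunit gene, which averaged 138 CPM at day 14 and 178 CPM in controls (log2 change -0.37 ± 0.16, edgeR adjusted p = 0.170). Among the 76 genes, 23 had exons that overlap another gene of the table, 20 of them with a gene on the other strand. Counts of these can gain or lose reads through the overlap, and the strand setting of the counting is not given in the sources used here.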

How the data were processed

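Per the labels, 100 ng of RNA per library was prepared with a NuGEN mouse kit. Tools listed in the submitters' processing notes are cutadapt 1.8.1, HTSeq 0.6.1 and bcl2fastq 2.20.0.422, with build mm10. The aligner, annotation and strand setting are not given in the sources used here. The authors deposited raw read counts per gene. The 5 closing lines that name no gene were left out of library sizes and tests.

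All 16 libraries entered 1 fit in edgeR 4.0.16 (R 4.3.3): TMM scaling, filterByExpr, quasi-likelihood test and Benjamini-Hochberg adjustment over 18430 genes at 0.05. The procedure was run on simulated data. The planted changes were larger than any change of the 76 genes, and genes were drawn independently. The run therefore does not bear on changes of their size. The SE of a log2 change is its size over the root of F. CPM is TMM-scaled. Exon length is that of the longest APPRIS principal transcript in GENCODE M21, where all 76 symbols were found. Each library is taken as 1 mouse, from the design text, and p-values set group differences against the spread between libraries, estimated over all groups. Replicate numbers did not pair libraries: of 13 same-numbered pairs, 3 had a correlation of deviations over 0.1. Alternatives used limma 3.58.1, DESeq2 1.42.0, other scalings and filters, covariates and left-out libraries. Tables and figures used Python 3.11.15, pandas 2.3.3, NumPy 2.4.6 and Matplotlib 3.10.9.

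Members and lists were chosen with earlier results of these data known. Genes named are those called or, where none was, the 4 smallest p-values; the 2 highest and 2 lowest changes per comparison at a mean of at least 10 CPM; the 3 highest and 3 lowest levels per kb; a panel of 12; and called list genes where 6 or fewer.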

Additional observations from a re-analysis of the deposited data

Results flagged for a closer look

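The 28 named genes, the mean over all 76 genes, their share of gene counts and the share of reads outside gene models were checked in each of the 3 groups for 1 library far from the rest. Of these 93 checks 3 found one. Chance flags about 1 in 20 groups, or 4.65 of 93. Mrpl20 stood at 38.9 CPM in control replicate 2, against 22.4 to 26.9 CPM in the other controls. Mrpl52 stood at 78.8 CPM in day 7 replicate 4, against 47.7 to 54.1 CPM in the other day 7 libraries. Mrps17 stood at 21.1 CPM in the same library, against 10.7 to 14.9 CPM in the others.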

How the results depend on the processing

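Medians of the 76 genes against control were below 0 under every alternative run. They were also below the medians of all tested genes, except with the share outside gene models as a covariate. There the medians of the 76 genes and of all tested genes were -0.0469 and -0.0753 at day 14, and -0.0844 and -0.0845 at day 7. Members called lower at day 14 against control numbered 0 with library totals, in a fit to the 2 groups only, with the replicate block, and with the share outside gene models as a covariate. These fits called 0.543%, 0.0%, 0.114% and 0.0% of all genes lower. Members called lower also numbered 0 in the 10 libraries with over 1000 CPM Xist and without the libraries over 65% outside gene models, both added after the data were seen. There 0.439% and 0.0% of all genes were called lower. Where a fit called almost no gene, the 0 says nothing particular about the members. Members called lower numbered 2 (2.63%) with DESeq2, limma-voom and the Y-linked covariate, which called 3.79%, 2.52% and 2.39% of all genes lower. They numbered 11 (14.5%) with the dividing-cell covariate, which called 7.44% of all genes lower. With 1 library left out they numbered 0 to 9, beside 0.0979% to 5.14% of all genes. The day 14 median was -0.11 with library totals, -0.0469 with the share outside gene models as a covariate, -0.10 without the libraries over 65%, and -0.36 to -0.18 with 1 library left out. Members called lower at day 7 numbered 7 with DESeq2, 1 with the Y-linked covariate and 1 in the libraries with abundant Xist (9.21%, 1.32% and 1.32%, beside 8.45%, 1.36% and 1.11% of all genes). With 1 library left out they numbered 0 to 3, beside 0.0% to 5.58% of all genes, and the median of the 76 genes was -0.26 to -0.16. The day 14 against day 7 median was 0.12 with library totals, -0.17 with the dividing-cell covariate and -0.14 to 0.03 with 1 library left out (0 to 1 called lower). Signs turned for Mrps9 at day 14 against control (-0.0425, share outside gene models), and at day 14 against day 7 for Mrpl20 (-0.0223, dividing-cell covariate) and Mrpl52 (-0.0044, without day 14 replicate 2; -0.0044 to 0.40 over the libraries left out). The cause was not tested. In windows from 100 bases before to 50 after the start, the E-box stood in 2.74%, the SP motif in 39.7% and the TATA box in 1.37% of member windows, beside 4.35%, 28.8% and 6.94% of all RefSeq windows of that length and 4.94%, 39.1% and 6.43% of those of genes in the count table.

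Replicate numbers did not pair libraries (correlations -0.343 to 0.295, and 1 of 16 libraries correlated best with its own number). With the replicate block the medians were -0.32 at day 14 and -0.27 at day 7 against control and 0.00 between them, and Mrps5 had an adjusted p of 0.0665. Single genes carried a median error of 0.16 to 0.18. This error reflects the spread between libraries, and changes of its size were not detectable gene by gene.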
